A study of Sus scrofa with 15 samples.

Results

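The genes that make, sense, store and move cholesterol, including those of SREBP2 and its regulators, were followed in liver RNA of piglets. Livers of animals given lipopolysaccharide (LPS), the outer-membrane glycolipid of Gram-negative bacteria, were compared with livers of animals given saline. A list of 32 pig genes was matched by symbol to the table of gene counts, and 31 of them had a row among the 31908 genes of the table. PMVK, phosphomevalonate kinase, had no row under its identifier and is not described. All 31 passed the filter on low counts, as did 12774 genes in all. They comprise 18 enzymes of the synthesis route, 6 regulators of SREBP activity or receptor turnover, 2 sterol esterification enzymes and 5 carriers and transporters.

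The animals were male crossbred piglets (Duroc x Large White x Landrace) in the growing stage. The CON group received sterile saline (dose 0) and the LPS group 80 μg/kg of LPS, both into the peritoneum, and livers were taken 4 h later. The libraries are the input of an m6A immunoprecipitation, that is, fragmented polyadenylated RNA kept aside before the antibody step, with 3 CON and 3 LPS libraries. The labels do not say whether these are from separate animals, so values given below per liver, and their SD, are per library. Each library is a whole piece of liver, so fewer cells of a type and less RNA per cell cannot be told apart in any value given here.

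Cholesterol is built from acetyl-CoA. The mevalonate arm makes isoprene units and joins them to farnesyl diphosphate, squalene synthase commits these to sterols, and a series of membrane-bound enzymes closes the rings of lanosterol and trims it to cholesterol. Nearly all of these genes share the transcription factor SREBP2 (gene SREBF2), which the escort protein SCAP carries from the endoplasmic reticulum to the Golgi when sterols are scarce and which the INSIG proteins hold back when sterols are plentiful. The liver is the main organ of cholesterol synthesis, bile acid formation and sterol export in the body.

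Total counts ran from 4348478 to 10351491 in 5 of the libraries and reached 19967417 in LPS replicate 3, whose composition factor (TMM) was 0.735 against 0.979 to 1.11 in the others. The CON libraries correlated with each other at r of 0.947 to 0.957 over genes (log2 of scaled counts). LPS replicate 2 stood closer to the CON libraries, with r of 0.928 to 0.949, than to LPS replicate 3, with r of 0.858. Hepatocyte markers marked every library as liver, with albumin (ALB) at 12381 to 38011 CPM (counts scaled to library size, with TMM).

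The cholesterol synthesis genes were lower in the LPS livers as a group, but none of them passed the test across all genes when all 6 libraries were used. With edgeR, a call required an adjusted p under 0.05 (Benjamini-Hochberg over all tested genes) and a fold change over 1.5. None of the 31 genes met it in either direction, against 0% of all tested genes called lower and 0.0548% (7 genes) called higher. At an unadjusted p under 0.05, 16 of the 31 were lower and none was higher, where 6.33% of all tested genes were lower and 6.18% higher. That number of 16 was 8 without LPS replicate 1, 9 without CON replicate 3 and 10 without CON replicate 1. Of the 31, 16 had all 3 LPS values below all 3 CON values and none had them all above, against 9.80% and 6.52% of all tested genes. The median log2 fold change of the 31 genes was -0.83, with quartiles of -1.25 and -0.14, and that of all tested genes was 0.01, with quartiles of -0.40 and 0.38. Exact permutation of 3 against 3 libraries cannot give a two-sided p under 0.1 for a single gene, so no such test was run.

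The number of these genes called depended on the tool and on single libraries. DESeq2 called 4 of the 31 lower (MVK, MSMO1, INSIG2 and IDI1), where it called 1.15% of all genes lower. edgeR with no filter on low counts called 9 lower, against 1.48% of the genes tested there. Without LPS replicate 2, edgeR called MVK, FDFT1, INSIG2 and SOAT2 lower, against 3.45% of all genes, and without LPS replicate 3 it called SQLE and IDI1 lower, against 0.151%.

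**Figure D1:**
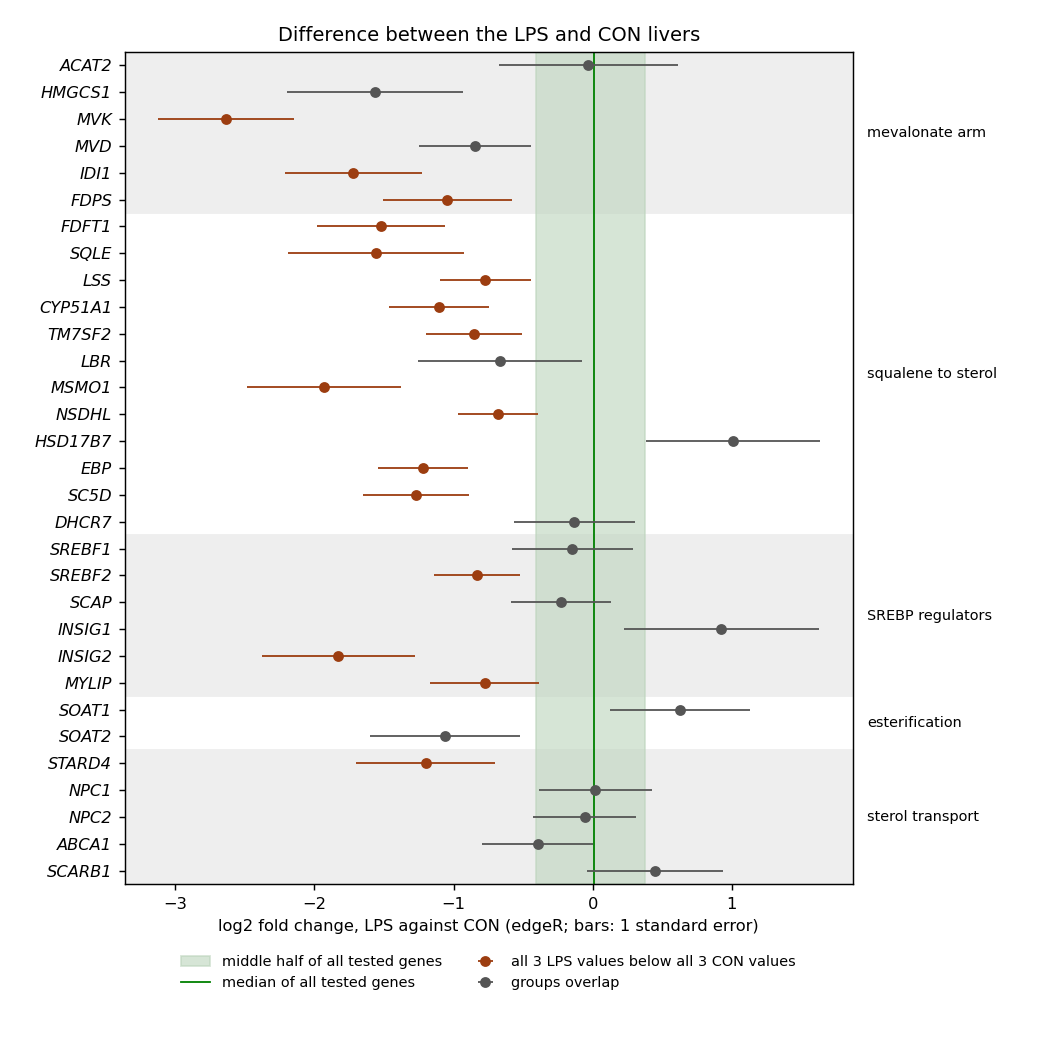
Log2 fold change of each of the 31 genes, LPS against CON livers (x axis; points with bars of 1 standard error from edgeR), ordered by role down the y axis. The green line and band are the median and the interquartile range of all tested genes. Most synthesis enzymes lie left of the band, MVK farthest at -2.63, while HSD17B7, INSIG1, SOAT1 and SCARB1 lie to its right with wide bars.

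Of the 6 mevalonate-arm genes, 4 were lower at an unadjusted p under 0.05 and 3 had no overlap between the groups, and their median log2 fold change stood at -1.30. ACAT2, the cytosolic thiolase that joins acetyl-CoA units, measured 16.4, 20.6 and 24.3 CPM in the CON livers and 10.9, 5.24 and 42.9 CPM in the LPS livers. Its LPS values lay on both sides of the CON values, and its log2 fold change of -0.03 (SE 0.64, adjusted p = 0.992, edgeR) was -1.34 without LPS replicate 3 and 0.42 without LPS replicate 2. TCP1 on the opposite strand shares 28.3% of the ACAT2 exon bases. It measured 28.5, 19.5 and 20.1 CPM in CON and 23.5, 17.5 and 61.7 CPM in LPS. Use of the strand in counting was not given, so the ACAT2 level is uncertain. HMGCS1, the HMG-CoA synthase of this arm, stood at 38.3, 24.4 and 62.8 CPM in CON and 3.71, 10.5 and 27.4 CPM in LPS. Only LPS replicate 3 reached the CON range, and the log2 fold change of -1.56 (SE 0.63, adjusted p = 0.359, edgeR) was -2.53 (adjusted p = 0.0826, edgeR) without that library.

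MVK, mevalonate kinase, was the lowest member relative to CON. It measured 77.2, 99.0 and 142 CPM in the CON livers and 7.41, 28.5 and 15.3 CPM in the LPS livers, so that the LPS mean was 16.1% of the CON mean (17.1 ± 10.6 against 106 ± 33.1 CPM, SD, n = 3 each). Every LPS value was far under every CON value. Its log2 fold change of -2.63 (SE 0.49, adjusted p = 0.0949, edgeR) stood at place 20 from the lowest among all 12774 genes. The gene spans positions 41281671 to 41362974 of chromosome 14 in the coordinates of the table. Its log2 fold change ranged from -3.19 without LPS replicate 2 to -2.28 when another library was left out, and DESeq2 gave -2.61 (adjusted p = 3.39e-05). MMAB, a gene of vitamin B12 metabolism on the opposite strand, overlaps the span of MVK but shares no exon bases with it. MMAB was also lower in every LPS library than in every CON library, with a log2 fold change of -1.33 (SE 0.37, adjusted p = 0.220, edgeR).

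MVD, the decarboxylase that makes isopentenyl diphosphate, measured 35.4, 64.8 and 55.1 CPM in CON and 35.3, 36.2 and 15.3 CPM in LPS, with a log2 fold change of -0.85 (SE 0.40, adjusted p = 0.430, edgeR). LPS replicate 2 lay just inside the CON range. IDI1, which isomerises isopentenyl diphosphate, measured 60.7, 38.1 and 89.2 CPM in CON and 10.03, 13.4 and 32.98 CPM in LPS. Its groups did not overlap, and the log2 fold change was -1.72 (SE 0.49, adjusted p = 0.221, edgeR). FDPS, farnesyl diphosphate synthase, had low counts in this table, with 4.38, 3.44 and 3.66 CPM in CON and 1.74, 2.62 and 1.30 CPM in LPS (log2 fold change -1.04, SE 0.46, adjusted p = 0.396, edgeR). Of its exon bases, 81.2% are shared on the same strand with RUSC1, so reads could be split or dropped between these genes and its level is uncertain.

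In the branch from squalene to cholesterol, 9 of 12 genes were lower at an unadjusted p under 0.05 and the same number had all LPS values below all CON values, with a median log2 fold change of -0.98. FDFT1, squalene synthase, measured 81.9, 74.8 and 77.2 CPM in CON and 10.9, 46.1 and 24.2 CPM in LPS. The SD was 3.58 CPM among the CON livers and 17.8 CPM among the LPS livers, which all lay below them, with a log2 fold change of -1.52 (SE 0.46, adjusted p = 0.242, edgeR). On the opposite strand 42.0% of the FDFT1 exon bases are shared with CTSB, a lysosomal protease whose log2 fold change was -0.10 (SE 0.31, edgeR). CTSB measured 443, 414 and 526 CPM in CON and 325, 472 and 496 CPM in LPS. Whether the counting used the strand was not given, so the FDFT1 level is uncertain. SQLE, squalene epoxidase and a rate-limiting step, stood at 40.4, 41.1 and 64.5 CPM in CON and 6.32, 6.71 and 35.5 CPM in LPS. The groups did not overlap, although LPS replicate 3 came close to the CON livers. The log2 fold change of -1.56 (SE 0.63, adjusted p = 0.359, edgeR) became -2.88 (adjusted p = 0.0111, edgeR) without LPS replicate 3.

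LSS, which closes the rings of lanosterol, measured 87.0, 126 and 129 CPM in CON and 75.7, 76.7 and 48.2 CPM in LPS (log2 fold change -0.77, SE 0.33, adjusted p = 0.376, edgeR). CYP51A1, lanosterol demethylase, measured 84.2, 50.9 and 57.3 CPM in CON and 22.5, 24.5 and 42.1 CPM in LPS (log2 fold change -1.11, SE 0.36, adjusted p = 0.263, edgeR). For both genes the highest LPS value lay below the lowest CON value by less than the SD of the CON livers. The sterol reductase TM7SF2 stood at 33.6, 60.0 and 33.7 CPM in CON and 19.0, 22.6 and 28.6 CPM in LPS (log2 fold change -0.85, SE 0.35, adjusted p = 0.358, edgeR), with 74.0% of its exon bases shared on the same strand with CAPN1. LBR, a lamin receptor with the same reductase activity, gave 8.49, 14.5 and 10.8 CPM in CON and 1.53, 12.4 and 7.03 CPM in LPS. Its groups overlapped through LPS replicate 2 (log2 fold change -0.67, SE 0.59, adjusted p = 0.680, edgeR; -1.29 and adjusted p = 0.195 without that library).

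The enzymes that remove the methyl groups of lanosterol did not share one pattern. MSMO1, the methylsterol oxidase, was the lowest of the branch, with 52.6, 49.2 and 45.5 CPM in CON and 2.83, 15.1 and 20.1 CPM in LPS. Its LPS mean was 25.8% of its CON mean, and every LPS value was under 45.5 CPM, with a log2 fold change of -1.93 (SE 0.55, adjusted p = 0.221, edgeR; adjusted p = 0.0238, DESeq2). NSDHL, the decarboxylating dehydrogenase, measured 64.97, 47.0 and 60.9 CPM in CON and 39.9, 31.7 and 36.3 CPM in LPS (log2 fold change -0.68, SE 0.29, adjusted p = 0.373, edgeR). HSD17B7, the ketoreductase of the same complex, was the member with the highest log2 fold change, with 17.5, 17.2 and 23.2 CPM in CON and 23.8, 10.5 and 81.3 CPM in LPS. That value of 1.01 (SE 0.62, adjusted p = 0.546, edgeR) came mainly from LPS replicate 3, and without this library it was -0.17. Without LPS replicate 2 it was 1.46 by edgeR, with no call. DESeq2 then gave 1.49 and called the gene higher (adjusted p = 0.0314, DESeq2).

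The last steps of the route gave lower values for EBP and SC5D. EBP, the sterol isomerase, measured 42.1, 43.1 and 71.1 CPM in CON and 19.2, 25.03 and 22.8 CPM in LPS, and its LPS livers had the smallest SD of the branch (22.3 ± 2.95 CPM, SD, n = 3). Its log2 fold change was -1.22 (SE 0.32, adjusted p = 0.212, edgeR). SC5D, the sterol desaturase, stood at 30.1, 19.7 and 25.5 CPM in CON and 5.89, 12.4 and 12.6 CPM in LPS (log2 fold change -1.27, SE 0.38, adjusted p = 0.232, edgeR). Of the SC5D exon bases, 21.1% are shared on the same strand with a gene without a symbol, at 0 to 1.43 CPM. Another such gene, with 0 counts, shares 18.3% on the opposite strand. Reads could be split or dropped here, so the SC5D level is uncertain. DHCR7, the reductase that yields cholesterol, measured 41.3, 50.6 and 62.0 CPM in CON and 82.4, 30.6 and 28.1 CPM in LPS. LPS replicate 1 held the highest value of all 6 libraries and the other LPS libraries held the lowest, with a log2 fold change of -0.13 (SE 0.44, adjusted p = 0.930, edgeR).

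**Figure D2:**
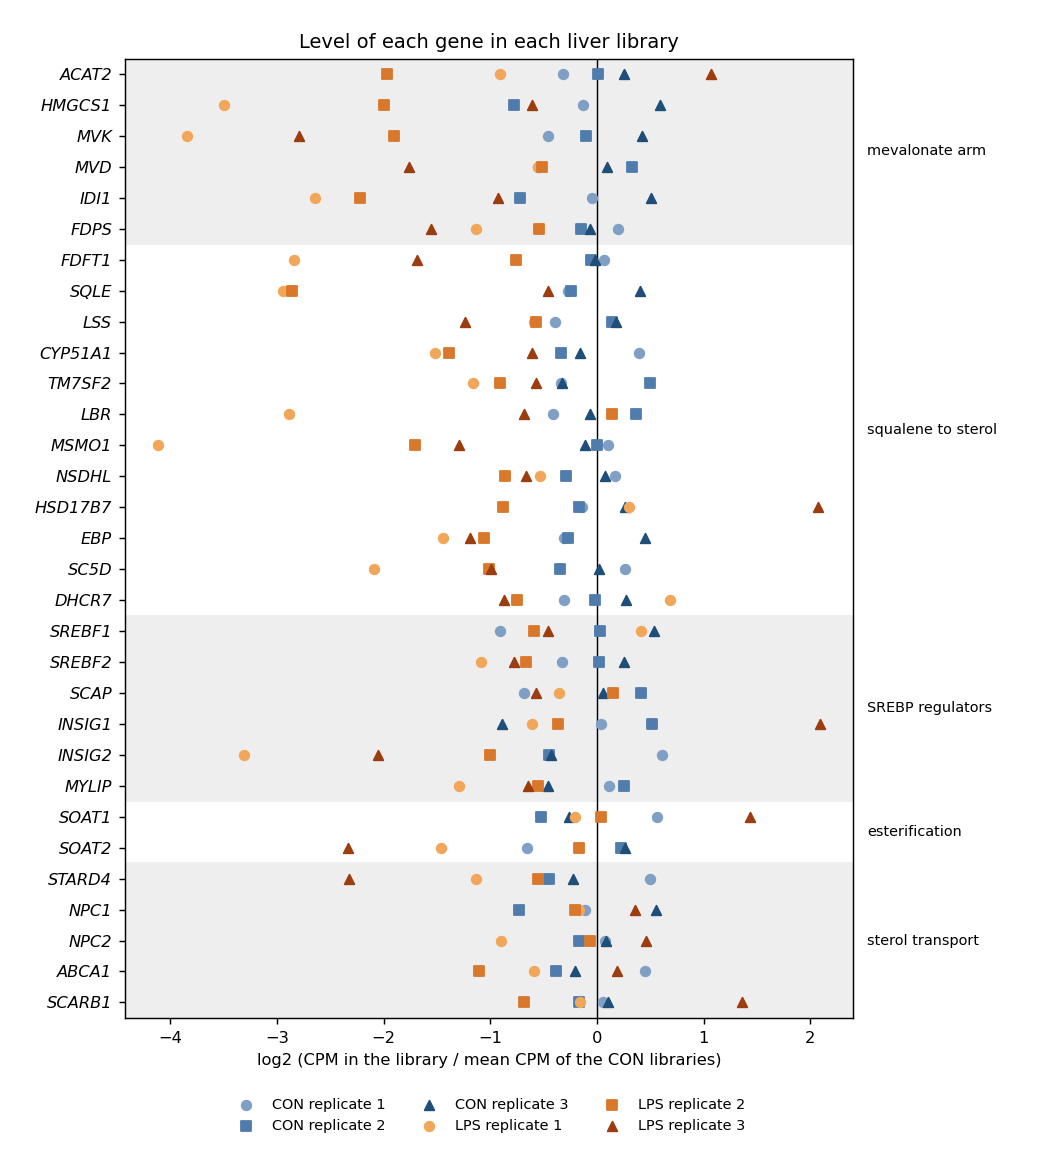
Level of each of the 31 genes in each library as log2 of its CPM over the mean CPM of the CON libraries (x axis), with genes by role on the y axis and 1 symbol per library. Most LPS symbols of the synthesis enzymes lie left of 0, and LPS replicate 3 lies right of all CON symbols for ACAT2, HSD17B7, INSIG1, SOAT1, NPC2 and SCARB1.

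Summed over the 18 synthesis enzymes, the CON livers held 816, 845 and 1038 CPM and the LPS livers 379, 411 and 522 CPM. All LPS sums were below all CON sums, and 17 of the 18 enzymes had a negative log2 fold change, with a median of -1.07. On the scale per gene length (TPM), EBP had the highest value of the enzymes in the CON livers at 82.7 ± 6.43 TPM (SD, n = 3) and FDPS the lowest at 1.20 ± 0.32 TPM. IDI1 came next after EBP at 70.4 ± 14.4 TPM, a difference within the spread of IDI1, followed by TM7SF2 at 56.7 ± 30.7 TPM. The places of FDPS and TM7SF2 are uncertain, since reads could be split or dropped. They share 81.2% and 74.0% of their exon bases with RUSC1 and CAPN1. In the LPS livers DHCR7 had the highest mean with 49.0 ± 42.4 TPM, a value carried by LPS replicate 1, ahead of EBP at 36.1 ± 12.1 TPM, and these did not differ beyond their spread.

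Of the 6 regulators, SREBF2 and INSIG2 were lower at an unadjusted p under 0.05, and the median log2 fold change was -0.50. SREBF2 measured 150, 190 and 224 CPM in the CON livers and 88.5, 119 and 110 CPM in the LPS livers (188 ± 36.9 against 106 ± 15.6 CPM, SD, n = 3 each). The groups did not overlap, the LPS mean was 56.3% of the CON mean, and the log2 fold change was -0.83 (SE 0.31, adjusted p = 0.326, edgeR). SREBF1, which encodes the related factor that drives fatty acid synthesis, measured 13.9, 26.6 and 37.8 CPM in CON and 34.7, 17.3 and 18.9 CPM in LPS, with all LPS values within the CON range (log2 fold change -0.15, SE 0.43, adjusted p = 0.919, edgeR). RAI1 on the opposite strand shares 24.6% of the SREBF1 exon bases. It measured 48.4, 64.8 and 80.9 CPM in CON and 102, 56.6 and 53.3 CPM in LPS. Use of the strand in counting was not given, so the SREBF1 level is uncertain. SCAP, the escort protein, measured 29.7, 63.4 and 49.5 CPM in CON and 37.1, 52.8 and 32.0 CPM in LPS (log2 fold change -0.23, SE 0.36, adjusted p = 0.829, edgeR), so that all LPS values lay within the CON range.

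The INSIG genes, whose products both retain SCAP in the endoplasmic reticulum, differed in pattern. INSIG1, itself an SREBP2 target, measured 247, 344 and 130 CPM in CON and 158, 187 and 1022 CPM in LPS. LPS replicate 3 alone exceeded the CON range, and the log2 fold change of 0.92 (SE 0.70, adjusted p = 0.629, edgeR) was -0.46 without it. INSIG2, whose liver transcript is known to respond to insulin rather than to SREBP, stood at 52.9, 25.3 and 25.7 CPM in CON and 3.49, 17.3 and 8.33 CPM in LPS. Its LPS mean was 28.1% of its CON mean with no overlap, and the log2 fold change was -1.83 (SE 0.55, adjusted p = 0.236, edgeR; adjusted p = 0.0372, DESeq2). The ratio of INSIG1 to INSIG2 in TPM was 1.63, 4.75 and 1.76 in the CON livers and 15.8, 3.75 and 42.8 in the LPS livers. LPS replicate 2 lay within the CON range of this ratio and the other LPS livers lay above it. MYLIP, the ubiquitin ligase (IDOL) that degrades lipoprotein receptors, measured 8.04, 8.90 and 5.44 CPM in CON and 3.05, 5.07 and 4.78 CPM in LPS (log2 fold change -0.78, SE 0.39, adjusted p = 0.461, edgeR).

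**Figure D3:**
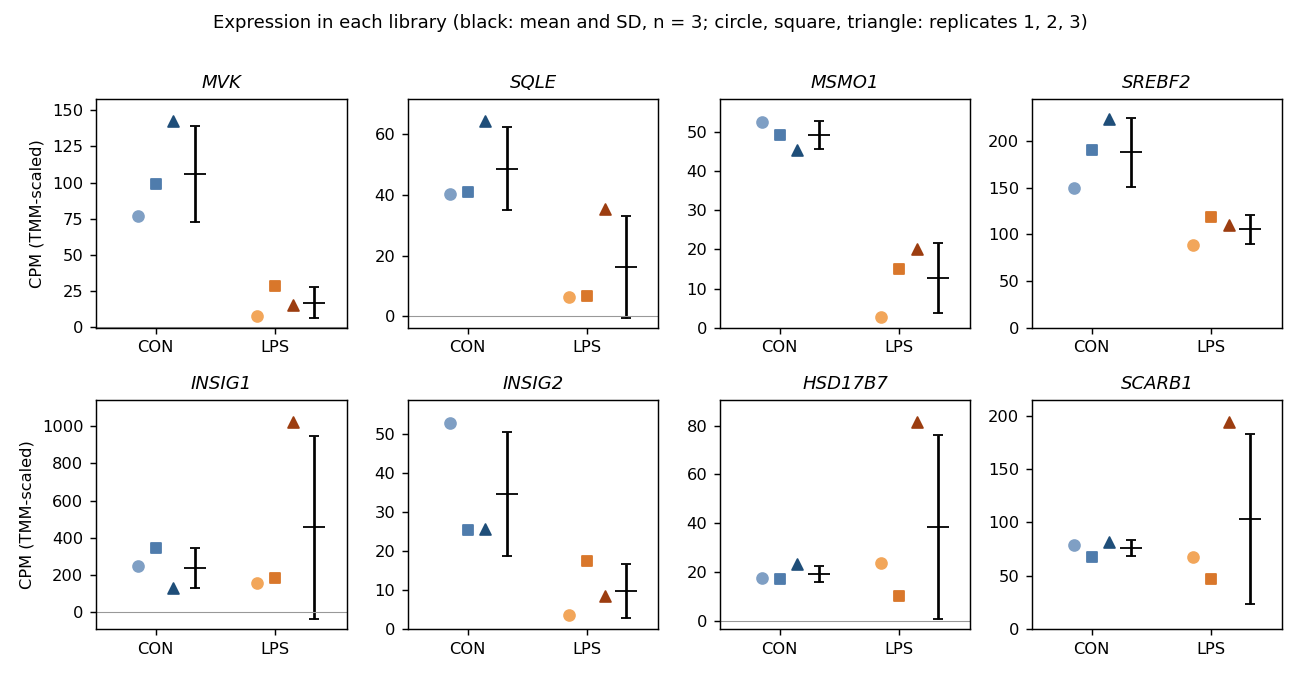
CPM on a linear scale (y axis) of MVK, SQLE, MSMO1, SREBF2, INSIG1, INSIG2, HSD17B7 and SCARB1 in the 3 CON and 3 LPS libraries (x axis), with the mean and SD of each group in black and 1 symbol per replicate. MVK, SQLE, MSMO1, SREBF2 and INSIG2 show separate groups, and INSIG1, HSD17B7 and SCARB1 show a single high library, LPS replicate 3, with 1022 CPM for INSIG1.

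The genes of esterification and transport were mixed. SOAT1 and SOAT2 make cholesteryl esters, and SOAT2 is the form typical of hepatocytes. SOAT2 measured 11.8, 21.7 and 22.3 CPM in CON and 6.76, 16.5 and 3.69 CPM in LPS (log2 fold change -1.06, SE 0.54, adjusted p = 0.461, edgeR; -1.87 and adjusted p = 0.0372 without LPS replicate 2). SOAT1 measured 12.96, 6.09 and 7.32 CPM in CON and 7.63, 8.998 and 23.8 CPM in LPS (log2 fold change 0.63, SE 0.50, adjusted p = 0.645, edgeR), and without LPS replicate 3 the value was -0.07. In TPM, SOAT2 exceeded SOAT1 by ratios of 1.80, 7.06 and 6.05 in CON and of 1.76 and 3.64 in LPS replicates 1 and 2, while the ratio was 0.307 in LPS replicate 3.

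Among the carriers, STARD4, a soluble sterol transfer protein under SREBP2, was the only gene with separate groups. It measured 13.5, 7.03 and 8.21 CPM in CON and 4.36, 6.54 and 1.91 CPM in LPS (log2 fold change -1.20, SE 0.50, adjusted p = 0.368, edgeR). The lysosomal exporters NPC1 and NPC2 lay close to CON. NPC1 gave 8.40, 5.47 and 13.3 CPM in CON and 8.07, 7.85 and 11.6 CPM in LPS (log2 fold change 0.02, SE 0.41, adjusted p = 0.992, edgeR). NPC2 ranged from 26.1 to 31.1 CPM in CON and from 15.7 to 40.3 CPM in LPS (log2 fold change -0.06, SE 0.37). The groups of both genes overlapped.

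ABCA1, which loads cholesterol onto nascent HDL, measured 46.7, 26.2 and 29.7 CPM in CON and 22.7, 15.9 and 39.1 CPM in LPS, with overlapping groups (log2 fold change -0.40, SE 0.40, adjusted p = 0.726, edgeR). SCARB1, the HDL receptor, measured 78.8, 67.3 and 81.5 CPM in CON and 67.8, 47.3 and 194 CPM in LPS. It was above the CON range in LPS replicate 3 and at its lower end or below it in the other LPS livers (log2 fold change 0.45, SE 0.49, adjusted p = 0.748, edgeR; -0.38 without LPS replicate 3).

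The LPS libraries differed from each other in these genes. Below their lowest CON value lay 23 of the 31 genes in LPS replicate 1, 22 in replicate 2 and 20 in replicate 3, where 37.1%, 26.5% and 37.2% of all tested genes did so. LPS replicate 1 held the lowest value of all 6 libraries for 15 genes, replicate 3 for 6 and replicate 2 for 5. The share of all tested genes was not computed for this count, so it is not read as particular to these genes. Above the highest CON value lay 6 genes in LPS replicate 3, 2 in replicate 1 and none in replicate 2, where 34.9%, 32.1% and 23.3% of all tested genes did so. On the log2 scale, the 31 genes had a median level relative to the CON mean of -1.05 in LPS replicate 1, -0.74 in replicate 2 and -0.64 in replicate 3, while no CON library was below -0.14 or above 0.08.

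Other lists of sterol metabolism were read from the same fit, and no gene in them was called. Of all tested genes, 6.33% were lower and 6.18% higher at an unadjusted p under 0.05 (edgeR). All LPS values lay below all CON values for 9.80% of them and above for 6.52%. The list closest to the synthesis genes was that of fatty acid genes driven by SREBP, in which all 10 tested genes had a negative log2 fold change with a median of -0.98, 4 were lower at an unadjusted p under 0.05 and 3 had separate groups. FADS2, a fatty acid desaturase, measured 185, 145 and 264 CPM in CON and 48.2, 92.6 and 63.7 CPM in LPS (log2 fold change -1.54, SE 0.37, adjusted p = 0.174, edgeR). ACSS2, which makes acetyl-CoA from acetate in the cytosol, measured 21.9, 23.0 and 26.3 CPM in CON and 3.71, 13.1 and 4.10 CPM in LPS (log2 fold change -1.77, SE 0.49, adjusted p = 0.218, edgeR). All LPS values of both genes lay below all CON values.

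The isoprenoid branch, which draws on farnesyl diphosphate for dolichol, ubiquinone and protein prenylation, had 11 tested genes with none at an unadjusted p under 0.05 in either direction and a median of 0.20 on the log2 scale. Likewise none of the 10 tested genes of SREBP processing and sterol-dependent degradation in the endoplasmic reticulum passed it (median -0.30), and none of 4 SREBP cofactors did (median 0.19). Of 7 tested genes of LXR and sterol efflux, 2 were lower at that threshold, and these were the partners of the biliary sterol exporter. ABCG8 measured 61.6, 45.6 and 45.6 CPM in CON and 19.0, 29.1 and 19.6 CPM in LPS (log2 fold change -1.18, SE 0.31, adjusted p = 0.212, edgeR), and ABCG5 measured 20.5, 8.59 and 8.50 CPM in CON and 3.71, 7.85 and 5.33 CPM in LPS (log2 fold change -1.15, SE 0.47, adjusted p = 0.360, edgeR). Both had separate groups, narrowly so for ABCG5.

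Of 11 tested sterol transfer genes, 2 were lower and 1 higher at an unadjusted p under 0.05, with a median log2 fold change of -0.08. NPC1L1, a sterol importer best known from the gut brush border, was the higher one, with 4.65, 12.3 and 14.8 CPM in CON and 41.9, 40.4 and 63.8 CPM in LPS. Every LPS value was well above every CON value (log2 fold change 2.20, SE 0.45, adjusted p = 0.104, edgeR). The lower ones were OSBPL9, an oxysterol-binding protein, with a log2 fold change of -1.36 (SE 0.45, adjusted p = 0.268, edgeR), and LIPA, lysosomal acid lipase, with -1.15 (SE 0.42, adjusted p = 0.314, edgeR).

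**Figure D4:**
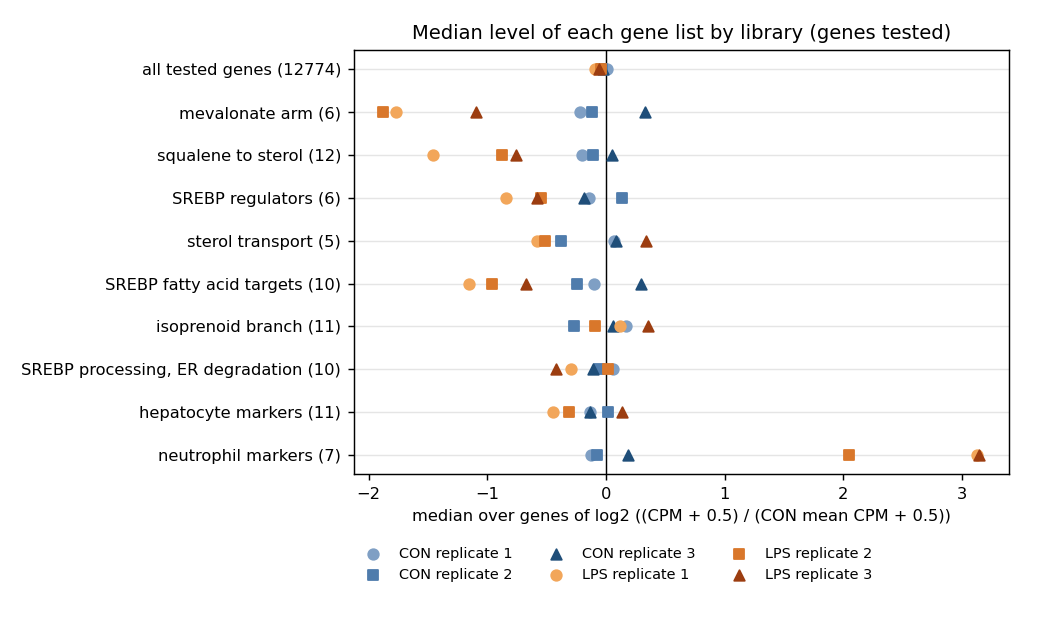
Median over the tested genes of each list of log2 of (CPM + 0.5) over (CON mean CPM + 0.5) in each library (x axis), with lists and their number of tested genes on the y axis and 1 symbol per library. For the mevalonate arm the LPS libraries lie at -1.77, -1.88 and -1.09, left of all CON libraries, whereas the median of all tested genes stays between -0.09 and 0.01 in every library.

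Cell type markers differed between the groups as well, and their values are given here beside those of the sterol genes. The summed level of 8 neutrophil markers with a row was 39.7 to 62.7 CPM in the CON livers and 299, 142 and 467 CPM in LPS replicates 1, 2 and 3. Of the 7 tested, 5 were higher at an unadjusted p under 0.05, and S100A8 and LCN2 were called higher (edgeR, adjusted p = 0.0371 and 0.0379).

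The 11 hepatocyte markers went both ways, so their median log2 fold change of -0.16 and their sums of 55506 to 77563 CPM in CON and 56494 to 108879 CPM in LPS do not describe single genes. FGB and FGG, the fibrinogen chains induced in the acute phase, had all LPS values above all CON values (log2 fold change 1.45 and 1.48), and FGB alone held 44960 CPM in LPS replicate 3. ALB, the asialoglycoprotein receptor ASGR1 and the cytochrome CYP2E1 had all LPS values below all CON values, with log2 fold changes of -0.76, -1.03 and -0.74. None of the 11 was called.

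All 10 Kupffer cell and macrophage markers had a negative log2 fold change, with a median of -0.48. MRC1, TIMD4 and VSIG4 had all LPS values below all CON values and were lower at an unadjusted p under 0.05, while the sum of the 10 was 1995 to 3247 CPM in CON and 1376 to 2301 CPM in LPS. Of 9 tested cholangiocyte and stellate cell markers, the cholangiocyte genes KRT7 and EPCAM had all LPS values above all CON values (log2 fold change 1.61 and 1.42), and the median of the list was -0.11. Of 8 endothelial markers LYVE1 had all LPS values above and TEK all below, with a median of -0.46. CD4 and CD2, of 7 tested T and NK cell markers, had all LPS values below (median -0.20), and the 6 tested B and plasma cell markers had overlapping groups (median -0.48). Over all tested genes, 9.80% had all LPS values below all CON values and 6.52% had them all above. Single separated genes in these short lists are therefore not read as particular to a cell type. No gene of these lists other than S100A8 and LCN2 was called, and the part of any of these markers in the sterol gene values was not tested.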

How the data were processed

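In all, 3 CON and 3 LPS libraries of liver input RNA were analysed. The authors deposited 1 table of raw counts per Ensembl pig gene, with gene spans and exon lengths. Their processing notes name cutadapt 1.9.3 and HISAT2 and the builds galGal6 and hg38. Not given in the sources used here are the pig build, the counting tool, its strand setting and its handling of shared reads, but 29 of the 31 genes overlap the RefSeq Sscrofa11.1 gene of the same name. The labels list 8 sequencing entries for 6 columns. The immunoprecipitated libraries were not analysed here. The labels do not say whether the libraries are from separate animals, and p-values measure the spread between them, which may in part be technical.

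Counts were tested with edgeR 4.0.16 (R 4.3.3; TMM, filterByExpr with a minimum count of 10, robust quasi-likelihood fit, Benjamini-Hochberg adjustment), with a call at an adjusted p under 0.05 and a fold change over 1.5. The fit was tested on simulated data with known changes. CPM is scaled by TMM, and TPM, computed from the deposited counts and exon lengths, is used only to compare genes. Alternatives were RLE and total-count scaling, other filters, DESeq2 1.42.0, limma-voom 3.58.1, a replicate block, no fold threshold and each library left out. Genes and lists were chosen with earlier results of these data known. Every member is accounted for, and of each other list up to 3 genes of smallest unadjusted p are named. Also named are marker genes of high level, called or with separate groups (the last chosen after their values were seen). MMAB, CTSB, RUSC1, CAPN1, TCP1 and RAI1 are named as genes that overlap a member.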

Additional observations from a re-analysis of the deposited data

How the results depend on the processing

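All alternatives kept the median log2 fold change of the 31 genes negative, between -0.94 and -0.66. Against 0 members, 0 genes lower and 7 genes higher called by edgeR, the counts were 9, 349 and 536 with no filter on low counts, 4, 146 and 258 with DESeq2, and 1 (MVK), 9 and 42 with the replicate block. Deviations of same-numbered libraries from their group means correlated at r of -0.256, 0.225 and 0.0261. With 3 libraries per group these values cannot show whether the numbers pair the libraries. RLE scaling called 1 gene lower, and total-count scaling 1 lower and 11 higher, with a median of all genes of -0.12. With at least 10 counts in every library 0 were higher, and with limma-voom 2; LBR and FDPS could not enter the former fit. With no filter 2 members were higher at an unadjusted p under 0.05. Removing the fold threshold altered no count. Leaving out 1 library in turn gave 0 to 4 members called by edgeR and 1 to 10 by DESeq2 (an alternative chosen after seeing the data), 0 to 470 and 34 to 750 genes lower, and 0 to 512 and 94 to 799 higher. The highest edgeR counts came without LPS replicate 2. HSD17B7, by DESeq2 without that library, was the only member called higher in any fit. Members lower at an unadjusted p under 0.05 were then 8 (without LPS replicate 1) to 15 by edgeR and 8 to 17 by DESeq2, against 16. Members higher numbered 0 to 1 and 0 to 2, and 0 to 1 had all LPS values above. The mevalonate median went from -1.87 (without LPS replicate 3) to -1.06 by edgeR and from -1.84 to -1.03 by DESeq2.

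Of 401 member values under alternatives, 358 kept direction and call, 20 became called and 23 changed sign, in 10 members. ACAT2 was 0.0021 with RLE and -1.34 to 0.42 over the libraries left out. NPC1 was -0.13 with total counts, -0.013 with no filter or the stricter one, and -0.23 to 0.43. With 1 library left out the others ranged from -0.48 to 0.035 (SCAP), -0.80 to 0.15 (DHCR7), -0.51 to 0.24 (SREBF1), -0.40 to 0.24 (NPC2), -0.17 to 1.46 (HSD17B7), -0.46 to 1.35 (INSIG1), -0.066 to 1.01 (SOAT1) and -0.38 to 0.80 (SCARB1). The cause was not tested. Depth limits LBR and FDPS most, with 7 and 8 reads in their lowest library.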
